A study of Mus musculus with 14 samples.

Results

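The genes described here make chemically modified bases in tRNA and other RNAs, or assist the enzymes that do. Members were all probe sets that name 1 gene alone and whose platform symbol starts with Trmt, Nsun, Pus and a number, Adat, Elp and a number, or Thumpd, or is Yrdc, Osgep, Mettl1, Wdr4, Trub1, Trub2, Nop2, Dus1l, Dus2, Dus3l, Dus4l, Ctu1 or Ctu2. The rule used symbols and no measured value, but the list was chosen with earlier results of these data known. It gave 110 probe sets of 52 genes, among 45037 probe sets tested and 18193 genes named alone by a probe set. Of the 52 genes, 18 had 1 probe set and 34 had more, and probe sets of the same gene share their transcript source. A further 2 probe sets that name a member together with another gene were left out.

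The arrays came from erythroid progenitors grown out of the bone marrow of wild-type C57Bl/6 female mice, 8 to 12 weeks old, with no transgene or deletion in any group. Stage E2 cells, which were taken on day 3.5 as lineage-depleted, Kit-depleted and CD71-selected cells, gave 3 plus EPO and 3 no EPO arrays. Stage E1 cells, which the labels place on day 3 as lineage-depleted cells selected for Kit and CD71, gave 4 plus EPO and 4 no EPO arrays. All 14 samples had spent 5.5 h without haematopoietic cytokines before 90 minutes with erythropoietin (EPO) at 4 U/mL or without it.

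Transfer RNAs carry many modified bases, which are added after transcription. Modifications in the anticodon loop act on decoding and keep the reading frame, whereas those in the body of the molecule help it fold and keep it stable. Several enzymes of the same families act on ribosomal RNA or inside mitochondria. Red cell precursors make very large amounts of globin, and EPO is the cytokine on which these progenitors depend for survival and growth.

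The deposited values are log2 expression values after GC-RMA, a background correction and summary for Affymetrix arrays, from which 1 constant per probe set had been subtracted. They give differences between arrays, while levels cannot be read from them and probe sets cannot be ranked by abundance. The number of arrays limits the precision. Pairs of arrays of 1 group correlated at r = 0.719 to 0.912 over all probe sets, and array medians lay between -0.0229 and 0.0314. Array SDs over all probe sets were 0.259 to 0.295 in E2 and 0.633 to 0.736 in E1. The median SD of the members was 0.0951 (E2 plus EPO), 0.094 (E2 no EPO), 0.247 (E1 plus EPO) and 0.26 (E1 no EPO). Over all probe sets it was 0.0343, 0.0317, 0.0729 and 0.0934 in the same order, so members varied more than the background. The shares over all probe sets given below were not matched for this spread. Of 8 probe sets of the known EPO targets Cish, Pim1, Socs3 and Podxl, 7 were called higher in E2 and 4 in E1. By limma, none of 13 probe sets of erythroid markers or 18 of other blood cell markers was called with EPO in either stage. At an unadjusted p under 0.05, E2 had 1 erythroid probe set higher and 2 lower, and 2 of other cells lower. In E1, 1 erythroid and 1 other probe set were lower. In RNA from bulk cells, fewer cells of a type and less RNA per cell cannot be told apart.

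In stage E1, EPO raised 9 of the 110 member probe sets, of 9 genes, and lowered none (limma's two-sided test, adjusted over all 45037 probe sets by Benjamini-Hochberg, threshold 0.05). The 9 are 8.18% of the members, where 0.804% of all probe sets were called higher and 0.36% were called lower. Members were chosen with earlier results known, so this share is not independent of those results. Trmt61a and Yrdc are listed by the authors as raised by EPO in E1 cells. At an unadjusted p under 0.05 the members had 33 higher and 2 lower. Of all 45037 probe sets, 2262 were higher and 1720 lower at that level. The median difference over the members was 0.27 on the log2 scale, against -0.00 over all probe sets, and 81 of the 110 (73.6%) lay above 0, against 39% of all probe sets. By role, the calls comprised 5 of 50 probe sets of tRNA methyltransferases and their partners, 2 of 15 of cytosine methyltransferases, 1 of 13 of pseudouridine synthases and 1 of 4 of threonylcarbamoyladenosine enzymes. None of the 13 probe sets of wobble uridine enzymes, 5 of adenosine deaminases or 10 of dihydrouridine synthases was called by limma. At an unadjusted p under 0.05, the wobble uridine enzymes had 2 higher and 1 lower, and the deaminases and dihydrouridine synthases had none.

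**Figure D1:**
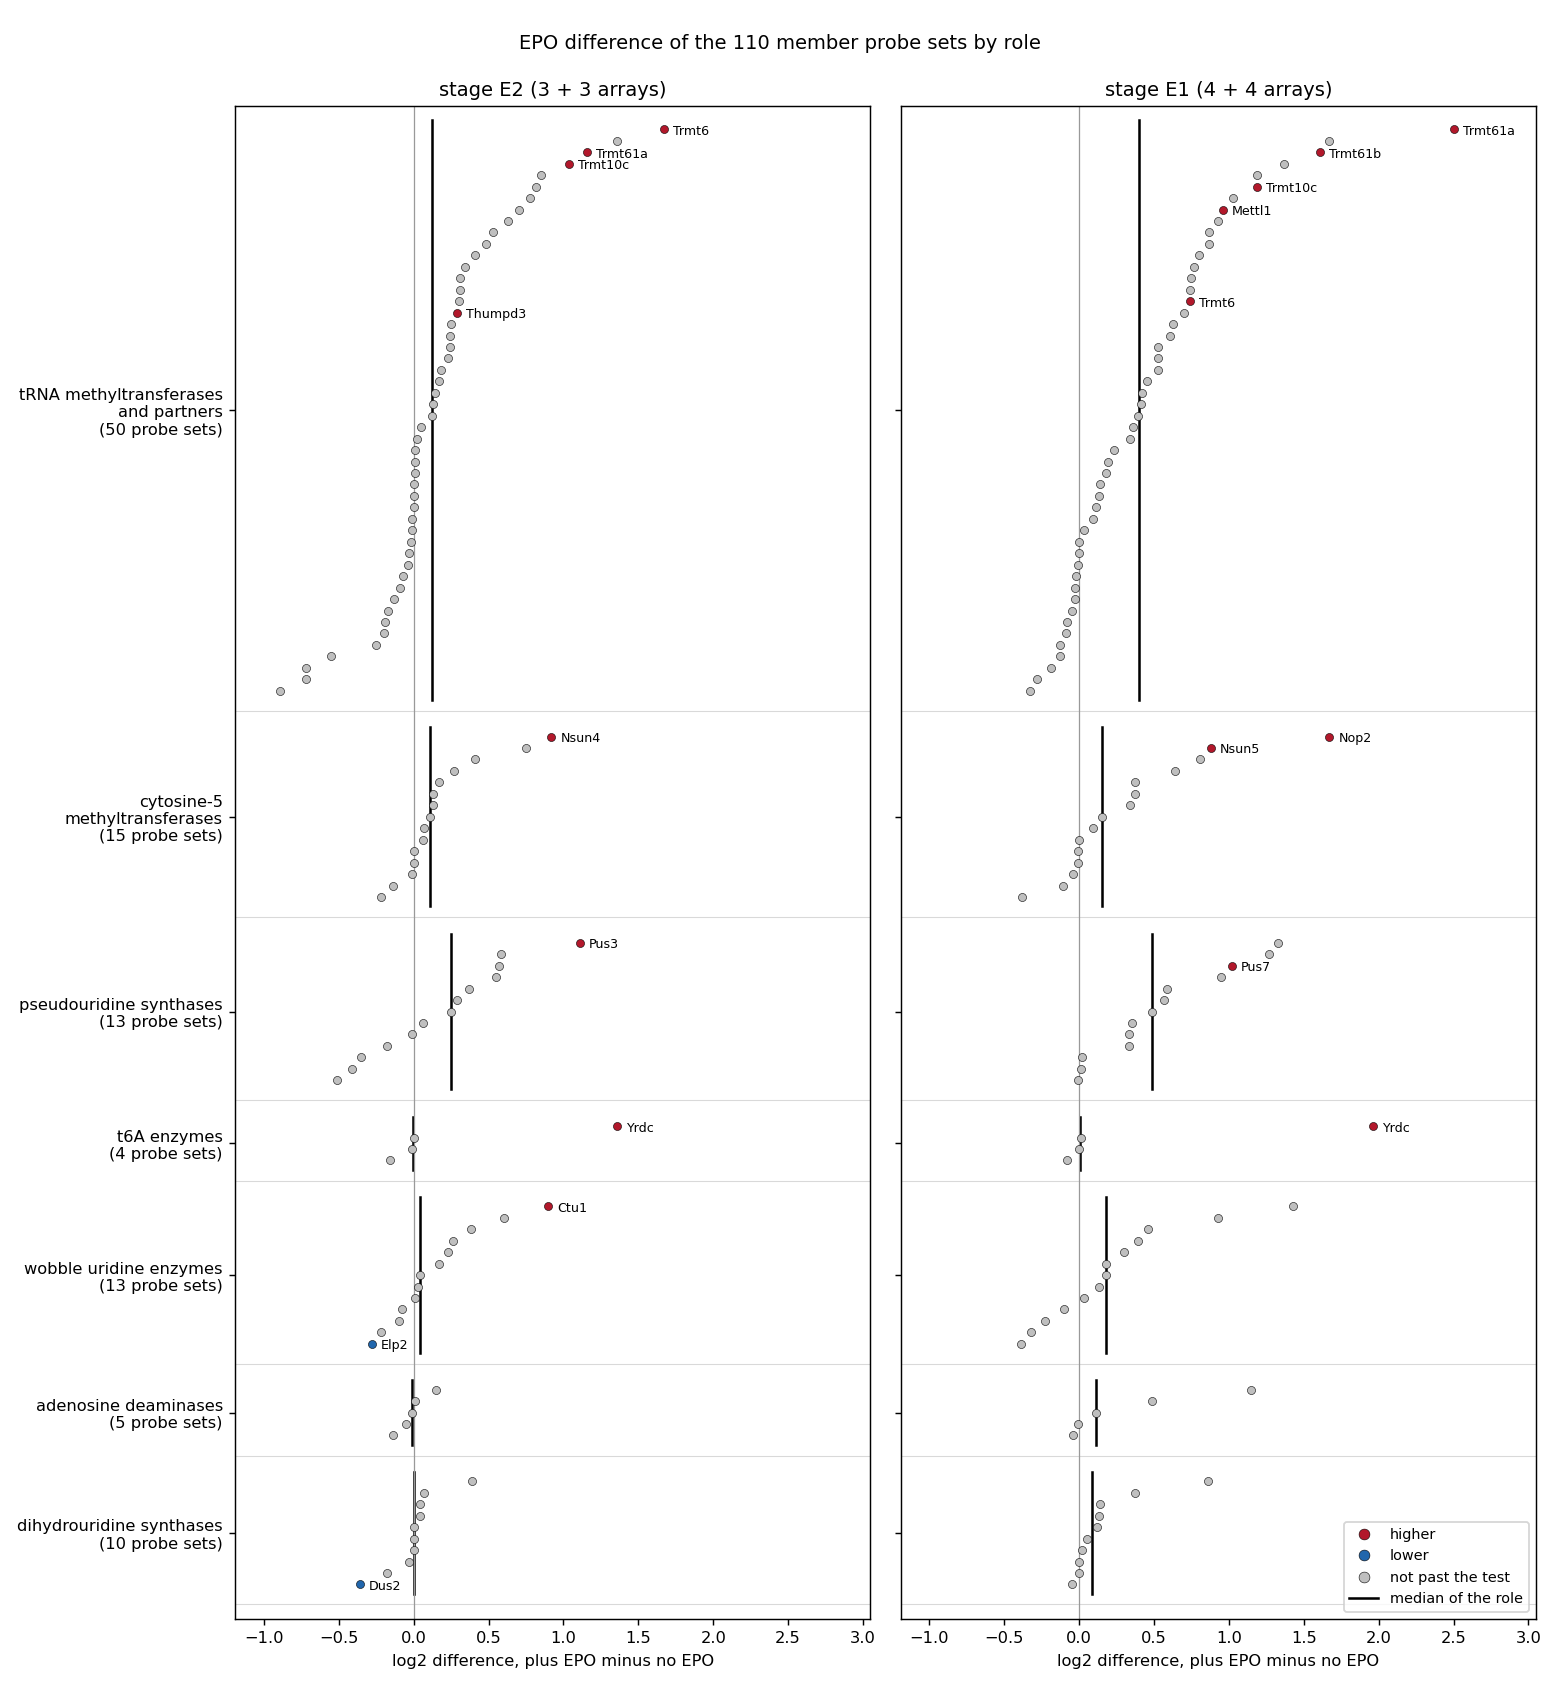
Log2 difference, plus EPO minus no EPO, of each of the 110 member probe sets (points) in stage E2 (left) and stage E1 (right), sorted within 7 roles, with coloured points for probe sets past the test and a line at each role's median. In E1 the 9 called probe sets are all to the right of 0, and in E2 there are 8 to the right and 2 to the left.

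The 2 proteins of the nuclear complex that methylates an adenosine in the T loop of cytosolic tRNAs both had a probe set that rose. Trmt61a, the catalytic subunit, stood at 2.0, 2.14, 2.62 and 3.19 in the 4 plus EPO arrays of E1, against 0.23, -0.28, 0.10 and -0.10 in the no EPO arrays. The lowest plus EPO array lay far above the highest no EPO array. The difference of 2.5 ± 0.27 (SE) on the log2 scale, or 5.65-fold, was the largest among the members (adjusted p = 0.0123, and 0.108 once replicate numbers were blocked). It was not past the test without E1 plus EPO replicate 3 (adjusted p = 0.0545).

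Trmt6, the partner subunit, had 3 probe sets. The called one, 1428754_at, stood at 1.39, 1.44, 1.51 and 1.64 in plus EPO arrays and at 0.72, 0.55, 0.87 and 0.90 in no EPO arrays of E1. These did not overlap, with a difference of 0.74 ± 0.0917 (1.67-fold, adjusted p = 0.0185, blocked adjusted p = 0.066). The other Trmt6 probe sets gave 1.67 ± 0.35 (adjusted p = 0.106, or 0.0156 without plus EPO replicate 4) and 0.70 ± 0.31 (adjusted p = 0.604). The call for 1428754_at was lost without no EPO replicate 1 or without plus EPO replicate 3 or 4, at adjusted p of 0.0516 to 0.0762.

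Trmt61b, whose product makes the same T loop modification in mitochondria and which RefSeq lists as a long non-coding gene in this mouse assembly, had the smallest p of the members in E1. Its values were 2.0, 1.82, 1.54 and 1.55 in plus EPO arrays, against 0.32, -0.12, 0.16 and 0.12 in no EPO arrays. The groups were well apart, and the difference was 1.61 ± 0.14 (3.04-fold, adjusted p = 0.00461, blocked adjusted p = 0.066). Leaving out any 1 of the 8 arrays kept the call.

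Trmt10c is a mitochondrial methyltransferase that is also a subunit of the RNase P that trims mitochondrial tRNAs. It stood at 0.88, 1.32, 1.57 and 1.66 with EPO in E1 and at -0.17, 0.29, 0.36 and 0.17 without, with no overlap. The difference was 1.19 ± 0.20 (2.29-fold, adjusted p = 0.0486, blocked adjusted p = 0.0691). The second Trmt10c probe set, which varied little over the 14 arrays (SD 0.057), gave -0.03 ± 0.0463. The call was lost without any 1 array other than plus EPO replicate 1 (adjusted p of 0.107 to 0.155).

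Mettl1, the enzyme that methylates a guanosine in the variable loop together with Wdr4, had 3 probe sets. The called one, 1447683_x_at, stood at 0.84, 1.15, 1.44 and 0.82 in plus EPO arrays, against 0.33, 0.00, 0.10 and 0.00 in no EPO arrays. The groups did not overlap and differed by 0.96 ± 0.15 (1.94-fold, adjusted p = 0.0459, blocked adjusted p = 0.196). Its other 2 probe sets gave 1.37 ± 0.26 (adjusted p = 0.0779) and 0.93 ± 0.25 (adjusted p = 0.225). Leaving out any 1 of the 8 arrays ended the call, at adjusted p of 0.0598 to 0.136.

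Among cytosine methyltransferases, 2 that act on large-subunit ribosomal RNA rose. Nop2, a nucleolar protein needed for large ribosomal subunit assembly, stood at 2.13, 1.81, 2.19 and 2.02 with EPO in E1, against -0.01, 0.05, 0.82 and 0.61 without. The plus EPO arrays were tightly grouped and the no EPO arrays fell into a higher and a lower pair. The difference was 1.67 ± 0.21 (3.18-fold, adjusted p = 0.0186, blocked adjusted p = 0.0882), and it missed the threshold without plus EPO replicate 1, 3 or 4 (adjusted p of 0.0506 to 0.0762).

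Nsun5 probe set 1434289_at stood at 1.39, 1.14, 1.22 and 1.49 in plus EPO arrays of E1, against 0.41, 0.48, 0.52 and 0.31 in no EPO arrays. These too did not overlap, with a difference of 0.88 ± 0.0869 (1.84-fold, adjusted p = 0.00836, blocked adjusted p = 0.129). Its second probe set differed by a similar 0.81 ± 0.32 but with a wider spread (adjusted p = 0.502).

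Pus7, a pseudouridine synthase of tRNAs and mRNAs, stood at 2.57, 2.61, 2.72 and 2.77 with EPO in E1 and at 1.73, 1.19, 1.97 and 1.71 without. All 4 plus EPO arrays lay above the highest no EPO array, and the difference was 1.02 ± 0.16 (2.02-fold, adjusted p = 0.0436, blocked adjusted p = 0.14). The call was lost without any 1 array other than no EPO replicate 2 (adjusted p of 0.0521 to 0.146). Across the 13 probe sets of pseudouridine synthases the median was 0.49, with 12 above 0, and only the Pus7 probe set passed.

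Yrdc makes the activated threonylcarbamoyl group that Osgep and its partners attach to the adenosine beside the anticodon. It stood at 0.94, 1.31, 1.5 and 1.73 in plus EPO arrays of E1, against -1.12, -0.82, -0.22 and -0.21 in no EPO arrays. The groups lay on opposite sides of 0, with a difference of 1.96 ± 0.26 (3.90-fold, adjusted p = 0.0245). Yrdc was the only member whose E1 call held with the replicate number as a block (adjusted p = 0.0386). It was lost without no EPO replicate 1, 2 or 3 or plus EPO replicate 2, 3 or 4 (adjusted p of 0.0526 to 0.0944). The 3 Osgep probe sets differed by between -0.08 and 0.01, but 1444592_at and 1457654_at hardly varied over the 14 arrays (SD 0.0066 and 0.038).

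In the roles with no call in E1, the probe set with the smallest p is given for each. Ctu1, which with Ctu2 adds sulfur to the wobble uridine, stood at 1.18, 1.37, 1.83 and 1.95 with EPO, against -0.37, 0.27, 0.46 and 0.26 without. The groups did not overlap and differed by 1.43 ± 0.24, which just missed the threshold (adjusted p = 0.0524) but passed with array weights (0.00413) and with all 14 arrays in the fit (0.0023). The fit of all 14 arrays shares 1 spread between the stages. Members varied less between E2 arrays than between E1 arrays, so that fit tends to lower the error used for E1. Adat1, a deaminase of an adenosine next to the anticodon, spread widely, at 0.01, 2.11, 1.83 and 2.47 with EPO and 0.11, 0.17, 1.54 and -0.01 without (adjusted p = 0.787). Dus1l, a dihydrouridine synthase, gave 0.37 ± 0.17 (adjusted p = 0.64).

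The settings mattered for the E1 count. With the replicate number as a block 1 of 110 members was called higher, and with quantile normalization 4 were. Quantile normalization ended the calls of Nsun5 (adjusted p = 0.0531), Trmt6 (0.0723), Pus7 (0.184), Mettl1 (0.0758) and Trmt10c (0.0539). It was run on the centred values, whose array SDs differed between the stages, and gave all arrays the same distribution. These E1 differences became smaller, as from 1.02 to 0.64 for Pus7, while that of Nop2 in E2 grew from 0.75 to 1.69. It thus rescales the stages against each other and is not a plain check of these calls. Centring each array on its median ended those of Pus7 (0.055), Mettl1 (0.0543) and Trmt10c (0.0658), and limma's trend and robust options ended those of Mettl1 (0.051) and Trmt10c (0.0536).

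In stage E2, EPO raised 8 member probe sets, of 8 genes, and lowered 2. The 8 are 7.27% of the members, where 2.54% of all probe sets were called higher, and the 2 are 1.82%, where 2.08% of all were called lower. The share of members called lower was thus near the background. At an unadjusted p under 0.05, 28 of the 110 members were higher and 13 lower. Of all 45037 probe sets, 3517 were higher and 3899 lower at that level. The median difference over the members was 0.05, against -0.00 over all probe sets, and 69 of 110 (62.7%) lay above 0, against 37%. The calls upward were 4 tRNA methyltransferases and 1 each of cytosine methyltransferases, pseudouridine synthases, threonylcarbamoyladenosine enzymes and wobble uridine enzymes.

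Yrdc had the smallest p of the members in E2. Its values were 1.41, 1.26 and 1.43 in the 3 plus EPO arrays, against -0.07, 0.10 and 0.01 in the no EPO arrays. The arrays of each group were close together, and the difference was 1.36 ± 0.0666 (2.56-fold, adjusted p = 0.00279), which passed the test without any 1 of the 6 arrays.

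Trmt61a stood at 0.99, 0.89 and 1.22 with EPO in E2, against -0.22, -0.09 and -0.07 without. The groups were apart by 1.16 ± 0.10 (2.23-fold, adjusted p = 0.00986). Its partner Trmt6 reached 1.95, 1.17 and 1.75 with EPO, against -0.02, -0.05 and -0.08 without, on probe set 1438326_at. That difference was the largest among the members in E2, at 1.67 ± 0.21 (3.19-fold, adjusted p = 0.0248), and its call was lost without any 1 array other than plus EPO replicate 2 (adjusted p of 0.0589 to 0.101). The Trmt6 probe set called in E1 gave 0.48 ± 0.16 in E2 (adjusted p = 0.243).

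Trmt10c stood at 0.48, 0.32 and 0.48 in plus EPO arrays of E2 and at -0.78, -0.54 and -0.52 in no EPO arrays. The groups lay on opposite sides of 0, at a difference of 1.04 ± 0.0905 (2.06-fold, adjusted p = 0.0101). Thumpd3, which methylates a guanosine of the acceptor stem of tRNAs with the activator Trmt112, showed a small and even shift. It stood at 0.04, -0.02 and 0.02 with EPO, against -0.31, -0.25 and -0.27 without (0.29 ± 0.0239, 1.22-fold, adjusted p = 0.00868), and its second probe set gave 0.53 (adjusted p = 0.221). The calls of Trmt61a, Trmt10c and Thumpd3 in E2 each held without any 1 array. A fit on all 14 arrays, whose spread takes in the more variable E1 arrays, ended that of Thumpd3 (adjusted p = 0.35).

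Nsun4, a mitochondrial methyltransferase needed to assemble the mitochondrial ribosome, stood at 0.22, 0.16 and 0.29 with EPO in E2, against -0.65, -0.82 and -0.61 without. The groups did not overlap on probe set 1424839_a_at, and differed by 0.92 ± 0.067 (1.89-fold, adjusted p = 0.00662). The other 2 Nsun4 probe sets gave 0.41 (adjusted p = 0.141) and 0.06 (adjusted p = 0.824).

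Pus3, a pseudouridine synthase of the anticodon stem, stood at 1.24, 1.13 and 1.41 with EPO in E2 on probe set 1433104_at, against 0.34, -0.06 and 0.16 without. These did not overlap (1.11 ± 0.13, 2.17-fold, adjusted p = 0.0203). Its other probe sets gave 0.57 (adjusted p = 0.053) and 0.29 (adjusted p = 0.356). Ctu1 stood at 0.41, 0.69 and 0.48 with EPO, against -0.29, -0.56 and -0.26 without, again with no overlap (0.90 ± 0.12, 1.86-fold, adjusted p = 0.0258). The Ctu1 call was lost without any 1 of the 6 arrays (adjusted p of 0.063 to 0.0829). That of Pus3 was lost without any 1 array other than no EPO replicate 1 (0.053 to 0.0756).

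The 2 members that fell in E2 moved little. Dus2, a dihydrouridine synthase, stood at 0.68, 0.63 and 0.65 with EPO, against 0.92, 1.05 and 1.06 without. The groups did not overlap, at a difference of -0.36 ± 0.0432 (1.28-fold lower, adjusted p = 0.0219). Its other probe set, which varied little over the 14 arrays (SD 0.056), gave -0.03 (adjusted p = 0.589). Elp2, a scaffold subunit of the Elongator complex that modifies wobble uridines, stood at -0.20, -0.28 and -0.29 with EPO, against 0.04, -0.04 and 0.05 without (-0.28 ± 0.0365, 1.21-fold lower, adjusted p = 0.0269). Elp2 probe set 1415774_at did not pass, at 0.07, -0.01 and 0.11 with EPO against 0.04, 0.01 and 0.02 without. Each call was lost without any 1 of 5 of the 6 arrays, at adjusted p of 0.0706 to 0.0848 for Dus2 (not no EPO replicate 1) and 0.0525 to 0.0897 for Elp2 (not plus EPO replicate 1). With all 14 arrays in the fit, the E2 calls of Dus2 (adjusted p = 0.812), Elp2 (0.243), Pus3 (0.0736) and Ctu1 (0.0966) were also lost, and that of Dus2 was lost with limma's trend and robust options (0.0622). The fit of all 14 arrays takes in the larger spread of E1 arrays, which tends to raise the error used for E2.

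**Figure D2:**
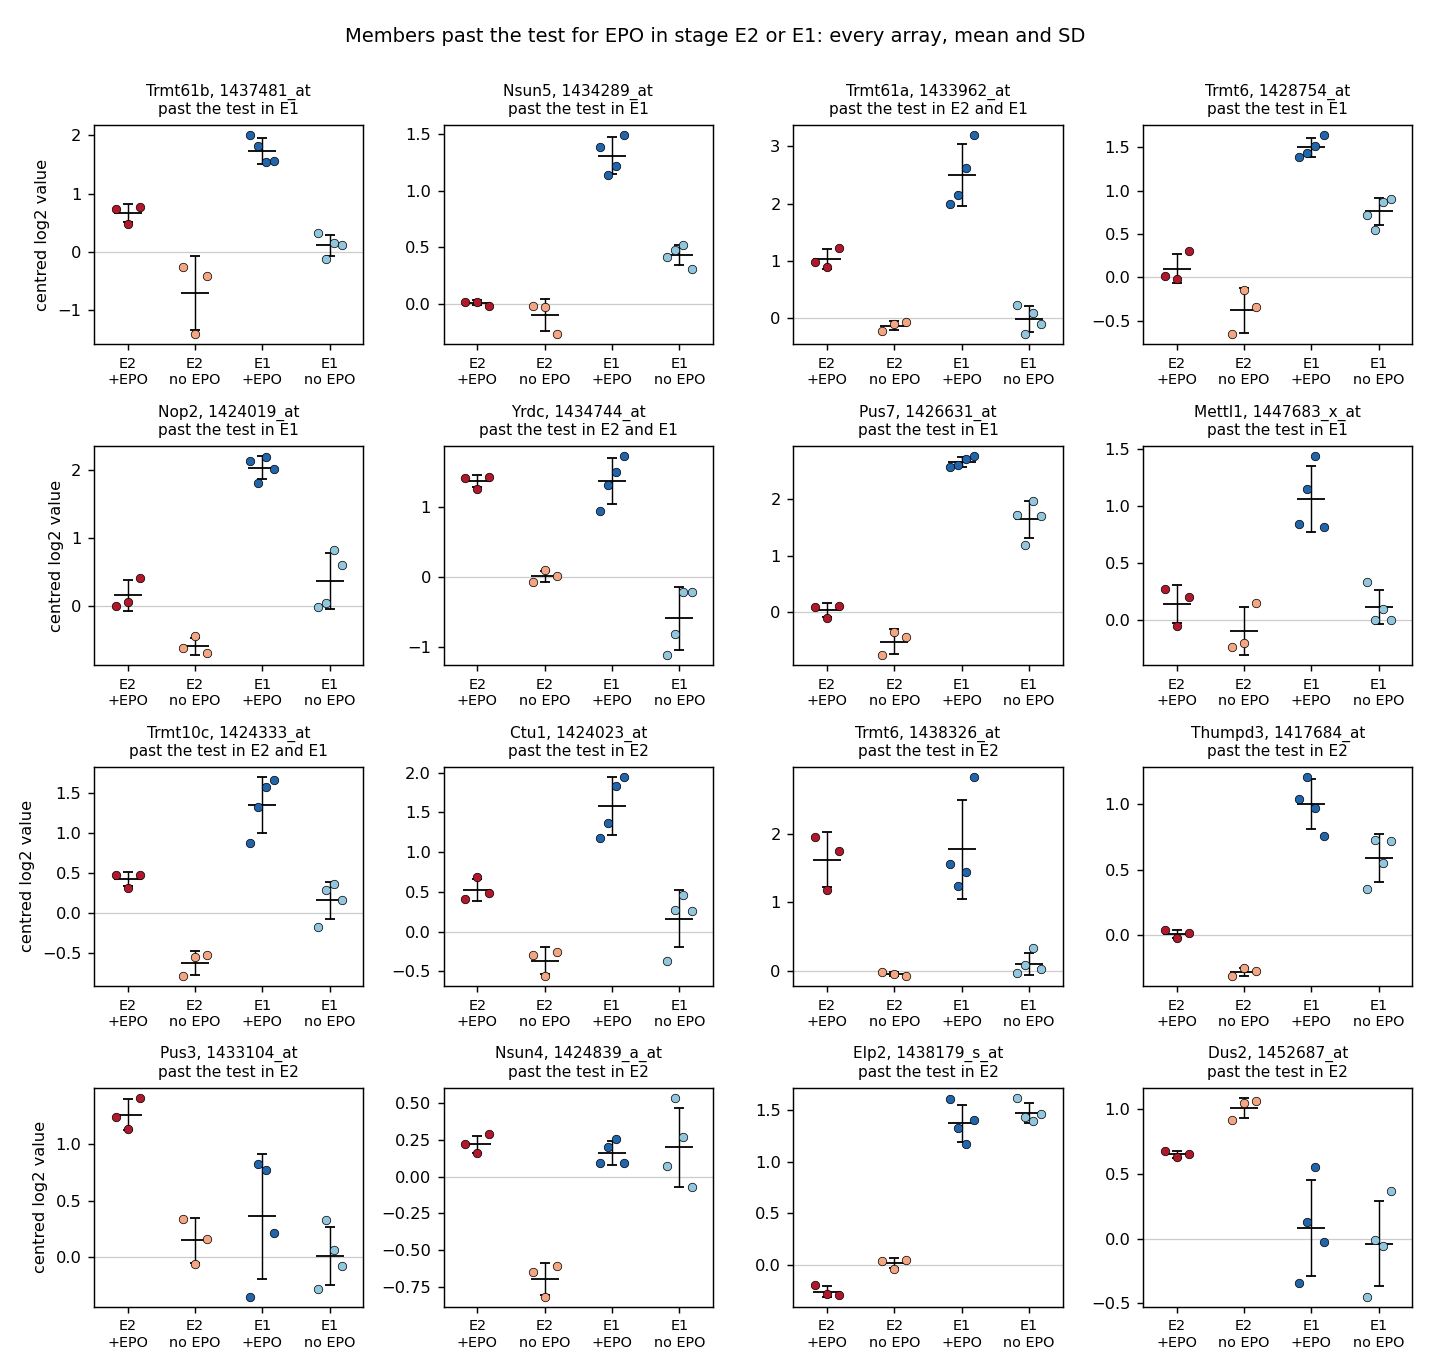
Centred log2 value on every array (points), with mean and SD (bars), of the 16 member probe sets past the test for EPO in stage E2 or E1, in the order E2 plus EPO (n = 3), E2 no EPO (n = 3), E1 plus EPO (n = 4) and E1 no EPO (n = 4). The 14 that rose come first, and the plus EPO arrays of Trmt61a, Yrdc and Trmt10c lie above the no EPO arrays in both stages.

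The EPO comparisons of the 2 stages share no array, so members called in 1 stage could be read in the other. Of the 8 probe sets raised in E2, 7 lay above 0 in E1 (87.5%), where 86.5% of all 1146 probe sets raised in E2 did. Their median in E1 was 1.31, against 0.50 for all probe sets raised in E2. All 9 raised in E1 lay above 0 in E2, at 0.11 to 1.36 with a median of 0.75, where 95.3% of all 362 probe sets raised in E1 did, with a median of 0.75. Called in both stages were 3 probe sets, those of Trmt61a, Yrdc and Trmt10c, which are 37.5% of the members' E2 calls and 33.3% of their E1 calls. Over all probe sets, 216 were raised in both, or 18.8% of the E2 calls and 59.7% of the E1 calls. Counting genes adds Trmt6, through different probe sets, for 4 genes.

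The difference between the stages in the EPO response was tested for each probe set in a joint fit of the 14 arrays. It passed for 1 member upward (0.909%, where 0.18% of all probe sets did) and 1 downward (0.909%, where 0.235% did). Nsun4 probe set 1424839_a_at differed by 0.92 in E2 and by -0.04 in E1, which is 0.96 ± 0.17 more in E2 (adjusted p = 0.04). Nsun5 probe set 1434289_at differed by 0.11 in E2 and 0.88 in E1, or -0.77 ± 0.12 (adjusted p = 0.0268).

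Neither interaction held with the replicate number as a block (adjusted p = 0.0847 for Nsun4 and 0.184 for Nsun5). The Nsun4 call was lost without any 1 array other than E1 no EPO replicate 2 or 4 (adjusted p of 0.052 to 0.118). That of Nsun5 was lost without E1 no EPO replicate 1 or any 1 of the 6 E2 arrays (0.0537 to 0.0831), with quantile normalization (0.665) and with limma's trend and robust options (0.0913). Quantile normalization called 6 members upward and 2 downward. The other 14 called probe sets did not pass the interaction. Quantile normalization also called that of Pus3 (1.46, adjusted p = 0.0158). For Trmt61a the interaction was -1.34 ± 0.34 (adjusted p = 0.191, or 0.00864 with array weights), for Yrdc -0.61 ± 0.32 (0.85) and for Trmt10c -0.15 ± 0.25 (1.0), which under quantile normalization turned to 1.35 (0.0113). The Thumpd3 value of -0.12 turned to 0.50 (0.0414) in the same way.

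**Figure D3:**
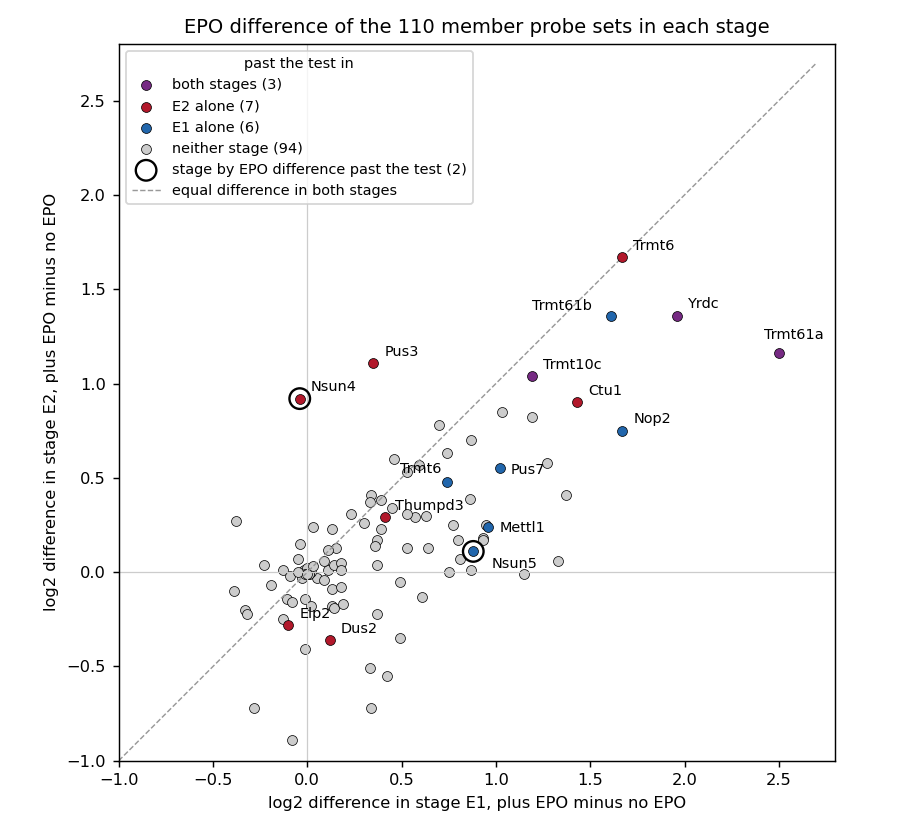
Log2 difference with EPO in stage E2 (vertical axis) against that in stage E1 (horizontal axis) for the 110 member probe sets, with the line of equal difference dashed. Probe sets past the test in both stages, in E2 alone or in E1 alone are coloured, and rings mark Nsun4 and Nsun5, whose stage by EPO difference passed the test.

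Between the stages themselves, many members were lower in E2 than in E1. Without EPO, 31 probe sets of 26 genes were lower in E2 and 6 probe sets of 5 genes were higher. The 31 are 28.2% of the members, where 10.8% of all probe sets were called lower, and the 6 are 5.45%, where 10.1% of all were called higher. Under EPO, 39 probe sets of 32 genes were lower (35.5%, against 12% of all) and 3 were higher (2.73%, against 10.3% of all). With quantile normalization the split under EPO was 31 lower and 8 higher. The member medians were -0.10 without EPO and -0.28 under EPO, against -0.03 over all probe sets in each comparison. These comparisons use the same arrays as those of EPO within the stages.

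Other measurements moved with stage in the same arrays. Of 18 probe sets of other blood cell markers, 7 were lower in E2 and 2 were higher (Pf4 and Itga2b, of megakaryocytes), in both comparisons. The differences reached -9.49 without EPO, at S100a8, a granulocyte gene. Of 13 erythroid marker probe sets, 10 were higher and 2 lower without EPO, the 2 being those of Kit, on which the cells were sorted. Slc4a1, the band 3 anion exchanger, was higher by up to 6.61 and Alas2, the erythroid haem synthesis enzyme, by 4.22. Summed levels of these lists cannot be read from centred values. The part of cell composition in the member differences was not tested, and any batch that went with stage cannot be told apart from it.

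Of the 7 roles, pseudouridine synthases had the largest share of probe sets called lower in both comparisons. Without EPO 7 of their 13 probe sets were lower in E2 and under EPO 9 were, and the medians were -0.75 and -1.41. Pus7l, a relative of Pus7, stood at -0.08, -0.23 and -0.23 in E2 no EPO arrays on probe set 1428800_a_at, against 2.95, 3.73, 3.55 and 4.22 in E1 no EPO arrays. The stages were far apart, at -3.79 ± 0.27 (13.8-fold lower, adjusted p = 2.27e-06), and under EPO at -4.49 ± 0.27 (22.5-fold lower, adjusted p = 6.07e-07). The second Pus7l probe set, 1460447_at, differed by less, at -1.52 without EPO (adjusted p = 0.00764) and -2.79 under EPO (adjusted p = 0.000109). Pus7 stood at -0.76, -0.35 and -0.44 in E2 no EPO arrays, against 1.73, 1.19, 1.97 and 1.71 in E1 no EPO arrays (-2.17 ± 0.16, 4.49-fold lower, adjusted p = 2.76e-06). Both genes had all E2 arrays below all E1 arrays in both comparisons. Pus10, a synthase of the T loop, differed by -1.21 ± 0.10 without EPO (2.31-fold lower, adjusted p = 5.25e-06).

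The wobble uridine enzymes had 5 of 13 probe sets lower in each comparison. Elp3, the catalytic subunit of Elongator, stood at 0.12, 0.05 and -0.05 in E2 no EPO arrays, against 1.34, 1.36, 1.5 and 1.46 in E1 no EPO arrays, with no overlap (-1.38 ± 0.0877, adjusted p = 9.71e-07, probe set 1426643_at). Elp2 stood at 0.04, -0.04 and 0.05 in E2 no EPO arrays, against 1.62, 1.43, 1.39 and 1.46 in E1 no EPO arrays. It had the smallest p of the members without EPO (-1.46 ± 0.087, adjusted p = 6.07e-07) and under EPO (-1.63, adjusted p = 2.45e-07). A second Elp2 probe set, 1415774_at, differed by -0.30 without EPO and -0.29 under EPO and did not pass (adjusted p = 0.531 and 0.54). Ctu2 probe set 1439387_x_at was also lower, at -1.18 in both comparisons, while Ctu2 probe set 1428350_at stood at 0.30 without EPO (adjusted p = 0.542) and -0.45 under EPO (adjusted p = 0.367).

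Of the 50 probe sets of tRNA methyltransferases and partners, 12 were lower without EPO and 18 under EPO. Trmt112, the activator of several of these enzymes, stood at -0.01, 0.05 and 0.01 in E2 no EPO arrays on probe set 1425299_s_at, against 0.87, 1.0, 1.18 and 1.25 in E1 no EPO arrays. The groups did not overlap (-1.06 ± 0.0841, 2.08-fold lower, adjusted p = 4.78e-06), and under EPO the difference was -1.42 ± 0.0841 (adjusted p = 5.04e-07). Its other probe set, 1460375_at, did not pass, at -0.01 without EPO (adjusted p = 0.973) and -0.76 under EPO (adjusted p = 0.0525). Wdr4, the partner of Mettl1, was lower by more, at -1.69 without EPO on probe set 1423138_at but with a larger p (adjusted p = 0.0117), and its other 3 probe sets did not pass there, at -0.26 to -0.00. Among cytosine methyltransferases, Nsun5 probe set 1434289_at stood at 0.02, 0.02 and -0.02 in E2 plus EPO arrays, against 1.39, 1.14, 1.22 and 1.49 in E1 plus EPO arrays. The stages did not overlap under EPO (-1.31 ± 0.0881, 2.47-fold lower, adjusted p = 1.26e-06), and without EPO they differed by -0.53 ± 0.0881 (adjusted p = 0.00105). Nsun2, the main enzyme for this mark in cytosolic tRNA, had a difference of -1.57 without EPO (adjusted p = 1.75e-05). Adat2, the catalytic subunit of the deaminase that makes inosine at the wobble position, had a difference of -2.22 (adjusted p = 0.000659).

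Few members were higher in E2. Nsun3, which methylates the mitochondrial methionine tRNA, stood at -0.06, -0.04 and 0.05 in E2 no EPO arrays on probe set 1436735_at, against -1.79, -1.0, -1.57 and -1.62 in E1 no EPO arrays. These did not overlap, at 1.48 ± 0.23 (2.78-fold, adjusted p = 0.00079), and the difference under EPO was 0.96 ± 0.23 (adjusted p = 0.0112). Trmt1l, a relative of the guanosine methyltransferase Trmt1, stood at 0.65, 1.28 and 0.93 in E2 no EPO arrays on probe set 1456996_at, against -0.60, -0.74, -0.35 and -0.30 in E1 no EPO arrays (1.45 ± 0.18, adjusted p = 0.000111). The other 2 Trmt1l probe sets differed by -0.04 (adjusted p = 0.83) and 0.02 (adjusted p = 0.819). Without EPO, Dus2 probe set 1452687_at (1.05, with 0.03 on its other probe set), a second Nsun3 probe set (1.17, with 0.47 and -0.03 on the 2 that did not pass), Trub2 probe set 1451408_at (0.80) and Trmt12 (0.75) were also higher, although Trub2 probe set 1424610_at was lower (-0.58). The Trmt12 call was lost without E2 no EPO replicate 1 or 2 (adjusted p of 0.055 and 0.0557).

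Under EPO the third higher member beside Nsun3 and Trmt1l was Pus3 probe set 1433104_at, at 0.90 ± 0.26 (adjusted p = 0.0264), whereas Pus3 probe set 1418491_a_at differed by -1.51. The Pus3 call was lost without E1 plus EPO replicate 4 or any 1 E2 plus EPO array (adjusted p of 0.0527 to 0.0989). That of Trmt1l under EPO (0.64, adjusted p = 0.0221) was lost without E1 plus EPO replicate 1 or 4 or E2 plus EPO replicate 1 or 2 (0.0532 to 0.0903), and with quantile normalization (0.0937). That of Pus3 was lost with only the 7 arrays compared (0.0944).

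**Figure D4:**
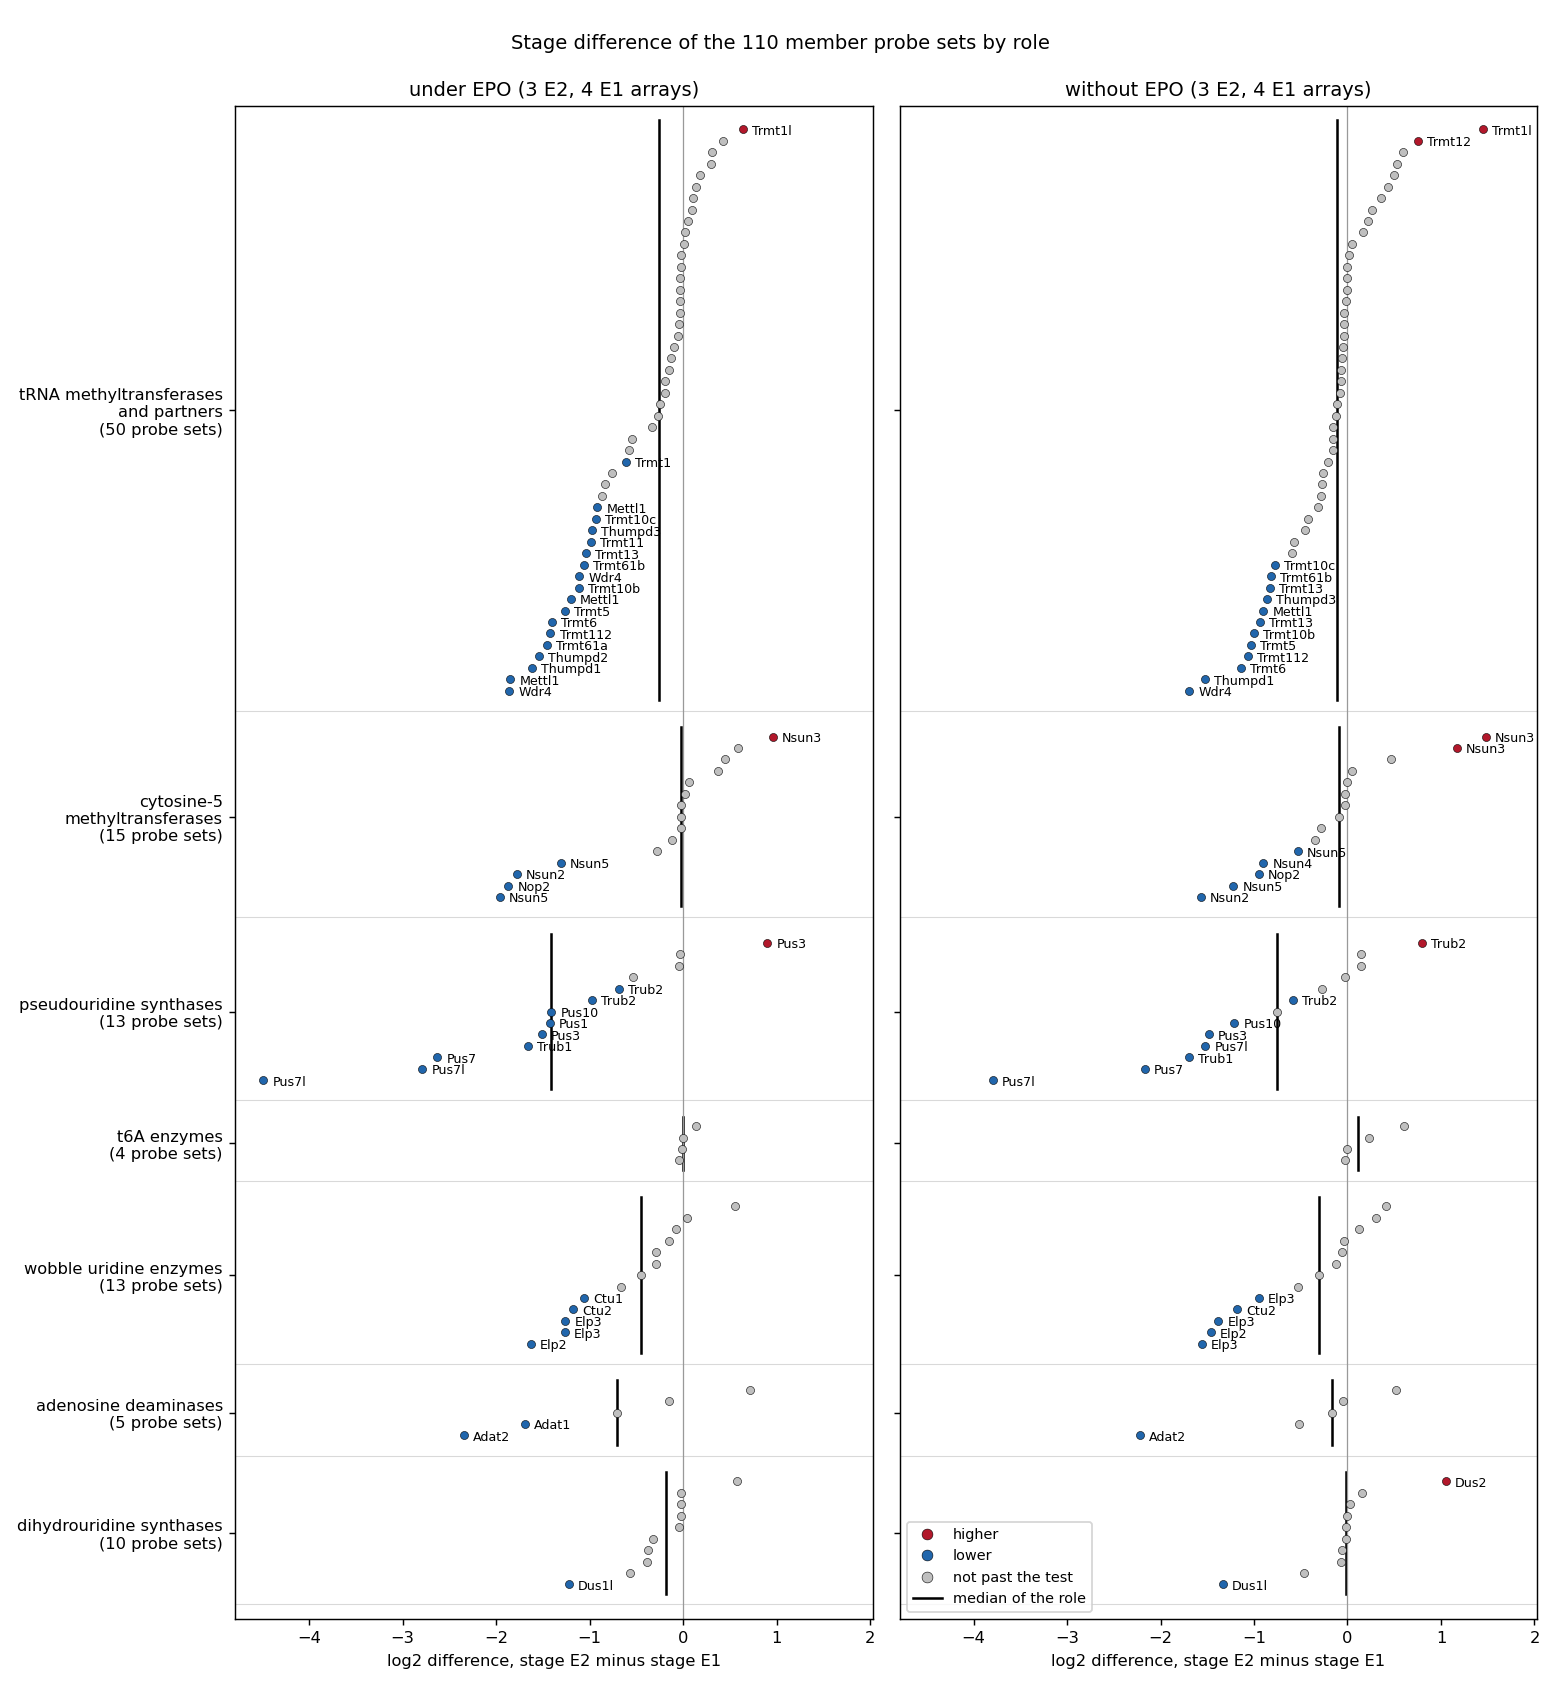
Log2 difference, stage E2 minus stage E1, of each of the 110 member probe sets (points) under EPO (left) and without EPO (right), sorted within 7 roles, with coloured points for probe sets past the test and a line at each role's median. Most called points lie left of 0 (39 of 42 under EPO and 31 of 37 without), and the threonylcarbamoyladenosine enzymes have none.

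Genes with related work were read in the same fits. Of 69 probe sets of 34 other tRNA modification genes, 7 were higher and 3 lower with EPO in E2, and 2 were higher and none lower in E1 (15 higher and 3 lower at an unadjusted p under 0.05). These are 10.1% higher and 4.35% lower in E2, where 2.54% and 2.08% of all probe sets were, and 2.9% higher in E1, where 0.804% were. Alkbh1, a demethylase of tRNA, was higher in both, by 1.32 in E2 (adjusted p = 0.0102) and 1.41 in E1 (adjusted p = 0.00222). Kti12, a regulator of Elongator, was also higher in both, by 0.77 in E2 (adjusted p = 0.0115) and 1.15 in E1 (adjusted p = 0.00563). Of 62 probe sets of 30 rRNA and mRNA modification genes, 8 were higher and 2 lower in E2, and 4 were higher and none lower in E1 (20 higher and 3 lower at an unadjusted p under 0.05). The shares were 12.9% higher and 3.23% lower in E2 and 6.45% higher in E1. At an unadjusted p under 0.05 in E1, 2262 of all 45037 probe sets were higher and 1720 lower. Dimt1, a dimethyltransferase of small-subunit rRNA, rose by 0.91 in E2 (adjusted p = 0.0242) and 1.43 in E1 (adjusted p = 0.00243). Between stages, the other tRNA genes had 16 lower in E2 and 6 higher under EPO (23.2% and 8.7%, against 12% and 10.3% of all probe sets). Without EPO they had 12 lower and 7 higher (17.4% and 10.1%, against 10.8% and 10.1% of all). The rRNA and mRNA genes had 31 lower and 5 higher under EPO (50% and 8.06%) and 22 lower and 6 higher without (35.5% and 9.68%).

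Promoter sequences were searched for 4 motifs on both strands, in windows from RefSeq (mouse build GRCm38.p6) that run from 250 bases before to 50 bases after an annotated start. Of the 52 member genes 44 had a window, and Adat1, Elp2, Elp3, Nsun5, Trmt1, Trmt12, Trmt6 and Trmt9b had none. The motif CACGTG, the E-box bound by Myc and related factors, was present in 10 of 44 member genes (22.7%) and in 8.09% of the 27025 genes with a window. Among the 11 genes with a window that EPO raised in E2 or E1, 6 held it (54.5%), against 4 of the 33 other members (12.1%). The motif TTCNNNGAA, the core of STAT5 sites, was in 2 of the 11 raised genes and 3 of the 33 others, and in 9.55% of all genes. TGATGNAA, of the kind bound by ATF4, was in 1 and 0, and in 4.51% of all. GCATGCGC, part of the NRF1 site, was in 0 and 4, and in 3.05% of all. No motif contains another, a match says only that the letters are present, and no test was made.

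The E-boxes of the 6 raised genes are shown with their flanks because they are the sequence feature those members had most often, with the motif in capitals, 5′ to 3′ on the strand of the gene.
Mettl1: agctcggctctcCACGTGgactgcgtggca
Nop2: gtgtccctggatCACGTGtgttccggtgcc
Pus3: tctcgcccctggCACGTGctgccacccccg
Pus7: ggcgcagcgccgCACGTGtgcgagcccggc
Trmt61a: ccgccgtggagcCACGTGtggagccgggag
Trmt61b: gtggctacgtcaCACGTGtgcgacagcacc
They lie at chr10:127041950-127041979 (plus strand), chr6:125131811-125131840 (plus), chr9:35558416-35558445 (plus), chr5:23783666-23783695 (minus), chr12:111678118-111678147 (plus) and chr17:71598753-71598782 (minus), in the order printed. Counted from an annotated start, with the start as position 1, the first base of the motif is at -60 in Nop2, -132 in Pus3 and -9 in Trmt61b. In Mettl1 (31), Pus7 (29) and Trmt61a (26) it lies just inside the transcribed part.

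For Nop2, which rose 3.18-fold in E1, the 250 bases before its start (chr6:125131633-125131882, plus strand) are given in full with the E-box in capitals.
Nop2 promoter: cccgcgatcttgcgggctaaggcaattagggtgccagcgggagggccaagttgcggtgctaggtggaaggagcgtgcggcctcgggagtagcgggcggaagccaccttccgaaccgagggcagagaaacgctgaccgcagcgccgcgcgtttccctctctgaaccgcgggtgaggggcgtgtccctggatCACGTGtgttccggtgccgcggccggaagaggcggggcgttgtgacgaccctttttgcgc

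The members with an E-box that EPO did not raise past the test were Osgep, Pus1, Thumpd2 and Trmt10a. Pus1 gave 1.27 in E1 (adjusted p = 0.168) and 0.58 in E2 (0.125), with no overlap in either stage. Trmt10a probe set 1435035_at did not overlap either, at 1.19 in E1 (0.158) and 0.82 in E2 (0.0565). Thumpd2 gave 0.42 in E1 (0.546) and -0.55 in E2 (0.408). Osgep, the transferase that uses the Yrdc product, has 3 E-boxes. They are shown because no Osgep probe set was called with EPO in either stage while that of Yrdc was called in both.
Osgep at -82: tctgcctgttccCACGTGggcgattggtgt
Osgep at -61: gattggtgtggtCACGTGattcgagggctc
Osgep at -37: gggctccgccccCACGTGgttctggagcgc
These lie at chr14:50924958-50924987, chr14:50924937-50924966 and chr14:50924913-50924942 on the minus strand. Yrdc itself, raised in both stages, has no CACGTG in its window.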

How the data were processed

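The authors extracted RNA from each of the 14 samples, hybridized Affymetrix mouse arrays, analysed the scans first in GCOS and then applied GC-RMA within GeneSpring GX 11. Values as deposited are log2 expression values (the base is that of GC-RMA and is not stated in the file), with 1 constant per probe set subtracted, so levels and a filter on low values could not be derived. Genes were named through the platform annotation, and all 52 member genes matched a current RefSeq gene. Members and lists were chosen with earlier results of these data known.

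For each stage, plus EPO was compared with no EPO with limma (version 3.58.1, run in R 4.3.3, files read with data.table version 1.17.8) over 45037 probe sets, with 64 control probe sets left out, and a joint fit of 14 arrays gave the interaction and the stage differences. The moderated test takes 1 spread per probe set for all groups in a fit, although members varied more between E1 arrays than between E2 arrays. With all 14 arrays in the fit, this tends to lower the error used for E1 and to raise that used for E2. Calls needed a Benjamini-Hochberg adjusted p under 0.05. Where 1 value per gene was needed, the probe set with the largest SD over the 14 arrays was used, which is not independent of the changes described. The fits were also run on simulated data with 1 spread per probe set for all groups, so the unequal spread of the stages was not checked. Tables were handled with pandas 2.3.3 and numpy 2.4.6, and plots drawn with matplotlib 3.10.9.

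Named with values were all members past the test for EPO or the interaction, the 6 with the smallest p in each direction of each stage comparison, the best of each role without a call, and Trmt61a and Yrdc. Other members are given by counts or 1 value. The promoter, Osgep, Wdr4, Nsun2, Adat2 and Ctu2 details were added after values were seen. Alkbh1, Kti12 and Dimt1, from lists planned to be given by counts only, were likewise picked after values were seen. Calls downward with EPO in those lists are given by count only.

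Same-numbered E1 arrays moved together about their group means (correlations 0.195, 0.187, 0.173 and 0.152). The main fits did not pair arrays, and the replicate number was a block only in an alternative fit. No source states a shared batch, and plus EPO replicate 3 correlated best with no EPO replicate 4 (0.203). The labels call the replicates biological. Alternatives were the replicate block, quantile normalization, median centring, array weights, limma's trend and robust options, all 14 arrays in the fit or only the 7 compared, gene means over probe sets, the methods' t-test and each array left out in turn. The methods' t-test is single-tailed and was taken in the direction of each difference. It therefore passes more probe sets at the same threshold than a test of both tails.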

Additional observations from a re-analysis of the deposited data

Results flagged for a closer look

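In 3 of 54 groups of 4 arrays tested, over the named probe sets, 1 array lay far from the rest by Dixon's criterion, where chance flags about 1 in 20 groups. Adat1 probe set 1425390_at stood at 1.54 on E1 no EPO replicate 3, with the others at -0.01 to 0.17. Elp3 probe set 1426643_at stood at 1.33 on E1 plus EPO replicate 1, with the others at 1.01 to 1.02. Nsun3 probe set 1444634_at stood at -0.17 on E1 plus EPO replicate 2, with the others at -0.03 to -0.02.

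The EPO difference of Nsun4 probe set 1424839_a_at was larger in E2 than in E1 by 0.96, and that of Nsun5 probe set 1434289_at was smaller in E2 by a tested difference of -0.77. Both passed the interaction test and neither did with the replicate number as a block.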

How the results depend on the processing

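Of 1442 results recomputed under an alternative, 1277 kept their direction and side of the threshold, 137 lost it, 26 gained it and 2 turned (the interactions of Thumpd3, at 0.50, and Trmt10c, at 1.35, under quantile normalization). The cause of these shifts was not tested. Quantile normalization was run on the centred values and gives all arrays the same distribution, so it also rescales E1 differences against E2 differences. Before it, array SDs over all probe sets were 0.259 to 0.295 in E2 and 0.633 to 0.736 in E1. The member count higher with EPO in E1 (9) was 20 with all 14 arrays in the fit, 16 with array weights, 4 with quantile normalization, 1 with the replicate block, 45 by the methods' single-tailed t-test unadjusted, and 2 to 7 with 1 array left out. Lowest was the count of 2 without plus EPO replicate 3. Without no EPO replicate 1 or 3 or plus EPO replicate 2 or 4 it was 4, 5, 5 and 4. The count lower in E1 (0) was 1 with array weights, 5 by the unadjusted t-test (0 when adjusted) and 0 to 1 with 1 array left out. In E2 the counts of 8 higher and 2 lower were 2 and 0 with the replicate block (Nsun4 held, at adjusted p = 0.0357, Trmt10a probe set 1427375_at was a new call, at 0.0429, and the other 9 calls were lost, at 0.0551 for Yrdc to 0.155 for Ctu1) and 31 and 14 by the unadjusted t-test. The lower count was 1 with limma's trend and robust options and 1 with all 14 arrays. With 1 array left out they were 5 to 7 higher (5 without no EPO replicate 2 or 3 or plus EPO replicate 1) and 0 to 2 lower (0 without no EPO replicate 2 or plus EPO replicate 2 or 3). E2 arrays of the same number did not deviate together (correlations of -0.0609, -0.0567 and -0.0155). With probe sets averaged per gene, 12 genes were higher in E2, against 7 by the representative probe set, and none passed the interaction upward. The interaction counts (1 and 1) were 6 and 2 with quantile normalization, 0 and 0 with the replicate block, 2 lower with array weights, 0 lower with trend and robust options, and 0 to 1 in each direction with 1 array left out. The stage counts without EPO (6 higher, 31 lower) were 3 and 16 with the replicate block. Under EPO (3 and 39) they were 1 and 25 with the block, 8 higher with quantile normalization and 6 higher with array weights. For the stage comparisons the block was fitted on only the 7 arrays compared, and it matched E2 with E1 arrays by replicate number. Same-numbered arrays of the stages did not clearly move together (correlations of 0.0126 to 0.0586 without EPO and -0.126 to -0.0509 under EPO). The fall in these counts is thus not the effect of a known pairing alone. Leaving out 1 array gave 1 to 5 higher under EPO (5 without E1 no EPO replicate 1, 1 without E1 plus EPO replicate 4 or E2 plus EPO replicate 1 or 2). Lower counts stayed at 27 to 31 without EPO and 35 to 45 under EPO. The counts under alternatives, here and above, are given without the share over all probe sets in the same setting. They show how the members' calls moved and cannot be set against a background. A filter on low values was not run, since centred values hold no level, and a probe set near the floor of GC-RMA cannot be recognised by its level. Some probe sets hardly varied over the 14 arrays, such as Osgep 1444592_at (SD 0.0066) and Trmt10c 1442716_at (SD 0.057), and a difference near 0 there says little.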
